A study of Mus musculus with 2 samples.

Results

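The 10 genes described here encode the transcription factor NRF2, the proteins that control it and enzymes whose genes it is known to switch on: Nfe2l2, Keap1, Sqstm1, Slc7a11, Gclc, Gclm, Txnrd1, Prdx1, Srxn1 and Hmox1. They were chosen by symbol as a pathway list, by a rule that uses no measured value though earlier results of these data were known, and each symbol matched 1 gene identifier among 55450 annotated genes, 21951 of them protein coding. Chromatin-bound RNA, with ribosomal RNA removed, was sequenced from macrophages grown from the bone marrow of C57BL/6J mice, a wild-type laboratory strain, with age and sex not recorded. Both libraries came from 1 condition. The cells had been exposed to 100 ng/ml lipid A, the lipid core of endotoxin and a ligand of Toll-like receptor 4, for 12 h, kept without it for 12 h and given 100 ng/ml again for 75 min. The libraries were labelled biological replicates 1 and 2, started from 250 and 500 ng of RNA and carried the same donor entry, so that their separate cultures are not spelled out and the spread between them may be in part technical. Cells without lipid A, or at another time after it, were not analysed here, so the values are levels in restimulated cells and not responses.

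NRF2 is held low in resting cells by KEAP1, which presents it to the CUL3 ubiquitin ligase for destruction by the proteasome. When cysteines of KEAP1 are modified by oxidants or electrophiles, or when the autophagy receptor p62 (the product of Sqstm1) occupies KEAP1, NRF2 escapes, pairs with a small MAF protein and binds antioxidant response elements in its target genes. The products of those targets make glutathione, reduce thioredoxin and peroxiredoxins and degrade haem. Since NRF2 itself is controlled mainly as a protein, the RNA of Nfe2l2 and Keap1 does not measure its activity. In macrophages the pathway is known to limit damage by the oxidants that the phagocyte NADPH oxidase makes and to restrain inflammatory genes.

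RNA on chromatin includes transcripts that are still being made or spliced. The depth of the alignment-based tables was 18445009 expected counts in replicate 1 and 17686824 in replicate 2. The cells carried the RNA of macrophages, with 10 of 10 macrophage markers reaching 1 TPM in each library and their median at 56.9 TPM, where TPM is a gene's length-corrected share of the library. Adgre1, the F4/80 antigen, had the highest mean of them, with 496.6 TPM in replicate 1 and 192.67 TPM in replicate 2, where Msr1 was higher at 306.6 TPM. On TMM-scaled counts the markers leaned towards replicate 1, with a median log2 ratio of replicate 1 over replicate 2 of 0.48. Of the 10, 3 were higher in replicate 1 by 2-fold or more and 0 were lower by that much. Msr1, Cd14, Mrc1 and Cd68 went the other way, with log2 ratios of -0.30, -0.69, -0.72 and -0.08. Their summed TPM was also higher in replicate 1 (1223, against 871 in replicate 2), a gap made mostly by Adgre1. The median TPM of the markers was instead lower in replicate 1 (51.5, against 61.6). Of 27 markers of B cells, T cells, neutrophil precursors, erythroid cells, fibroblasts and mast cells, only Alas2, of haem synthesis in red cell precursors, reached 1 TPM in both libraries by alignment (5.19 TPM in replicate 1, 1.24 TPM in replicate 2). The other highest markers were Col3a1 of fibroblasts (0.81 TPM on average), Kit of mast cells (0.28), Ltf of neutrophil precursors (0.075), Cd3d of T cells (0.045) and Ms4a1 of B cells (0.035). Without alignment, 1 marker in each of these lists except mast cells reached 1 TPM in both libraries. The T cell markers then summed to 16.1 TPM in replicate 1 and 20.8 TPM in replicate 2, against 0.09 and 0 TPM by alignment. In bulk RNA, fewer cells of a type and less RNA per cell cannot be told apart.

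The core letters of the antioxidant response element are shown first, as the sequence through which NRF2 is known to act. The core TGACNNNGC was searched on both strands from 250 bases before to 50 bases after each RefSeq gene start (build GRCm38.p6), where 8 of the 10 genes had 10 windows between them. It stood in 5 of those 10 windows and in 12.4% of all 32851 windows. The 5 matches are given with 30 bases each, 5′ to 3′ on the strand that reads the core, with the core in capitals.
Nfe2l2, chr2:75704884-75704913, minus strand: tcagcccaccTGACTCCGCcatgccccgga
Gclm, chr3:122245413-122245442, minus strand: ctcgtgagagtTGACGGTGCgcccgggagc
Prdx1, chr4:116685456-116685485, minus strand: cctacgggggaTGACTCAGCgctttccctg
Txnrd1, chr10:82859104-82859133, minus strand: ccgtgtcagaaTGACAAAGCaaaaatccag
Srxn1, chr2:152105542-152105571, minus strand: gtgtctcactcTGACCTAGCtgcccactgc

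The core read on the gene's own strand in Nfe2l2 and on the opposite strand in Gclm, Prdx1, Txnrd1 and Srxn1. Counted along the gene's strand, the first matched base lay 240 bases before the start in Nfe2l2 and 134 before in Gclm. It lay 133 before in Prdx1, 92 before in Txnrd1 and 28 bases after the start in Srxn1. The letters of an AP-1 site, TGANTCA, overlapped the core in Prdx1 and were also found elsewhere in the Prdx1 window and at a pair of places in the Srxn1 window. AP-1 letters stood in 7.81% of all windows. Keap1, Sqstm1, Slc7a11 and the other 2 Txnrd1 windows held no such core within these bases. A match describes the letters and does not show binding.

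All 10 genes were transcribed, from a mean of 1.52 TPM for Gclc to one of 352.2 TPM for Sqstm1. Each reached 1 TPM in both libraries, as 40.2% of the 21951 protein-coding genes did. Of the 10, 6 reached 10 TPM in both libraries, against 17.9% of protein-coding genes, and 2 reached 100 TPM, against 2.04%. The median level was 16.9 ± 7.53 TPM (SD between the medians of the libraries, 11.6 and 22.2 TPM), where 9604 protein-coding genes expressed at 1 TPM or more in either library had a median of 7.99 ± 0.247 TPM. The order of the levels in alignment-based TPM was Sqstm1, Nfe2l2, Txnrd1, Prdx1, Slc7a11, Keap1, Srxn1, Hmox1, Gclm and Gclc. Neighbours in that order whose libraries overlapped, and so did not differ beyond their spread, were Nfe2l2 and Txnrd1, Slc7a11 and Keap1, and Srxn1 and Hmox1. In alignment-free TPM Txnrd1 (115.7 TPM) stood above Nfe2l2 (114.2 TPM). The libraries of Nfe2l2 and Prdx1, and of Hmox1 and Gclm, then overlapped as well.

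**Figure D1:**
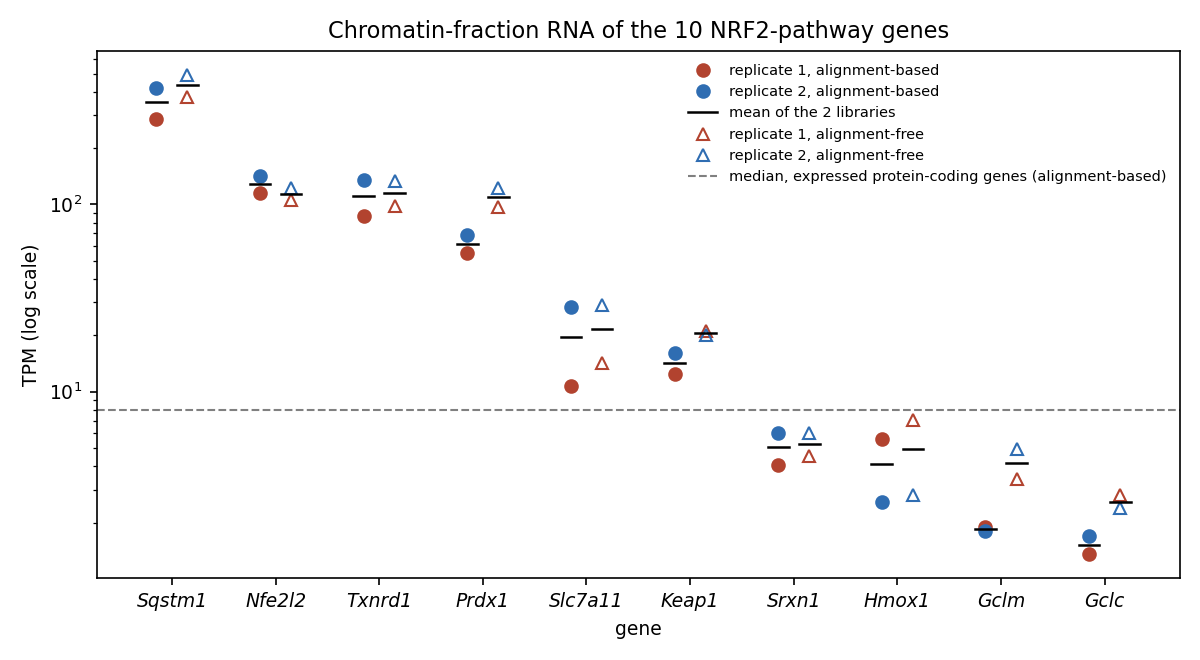
TPM on a log axis for each of the 10 genes in replicates 1 and 2, by the alignment-based (filled circles) and alignment-free (open triangles) quantification, with the mean of the 2 libraries as a bar and the median of expressed protein-coding genes (7.99 TPM) as a dashed line. Sqstm1 lies above all others by both, and Srxn1, Hmox1, Gclm and Gclc have means below the dashed line by both.

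The gene of the factor itself stood near the top and that of its inhibitor in the middle. Nfe2l2 (ENSMUSG00000015839.6, chr2:75675513-75704641 in mm10, minus strand), which encodes NRF2, had 115.84 TPM in replicate 1 and 142.15 TPM in replicate 2. Its mean of 129.0 ± 18.6 TPM (SD, n = 2) exceeded 96.1% of expressed protein-coding genes. Keap1 (ENSMUSG00000003308.15, chr9:21229730-21239361, minus strand), its inhibitor, had 12.39 TPM in replicate 1 and 16.13 TPM in replicate 2, a mean of 14.3 ± 2.64 TPM at the 64.3rd percentile. Within each library Nfe2l2 was the higher, with a TPM ratio of Nfe2l2 over Keap1 of 9.35 in replicate 1 and 8.81 in replicate 2. By the alignment-free quantification that ratio was 5.01 in replicate 1 and 6.11 in replicate 2. These values include non-coding isoforms, among them Keap1-203 with 6 counts in replicate 1 and 13 in replicate 2 by alignment. Over the coding isoforms alone Nfe2l2 had 42.44 TPM in replicate 1 and 54.72 TPM in replicate 2. Keap1 then had 8.23 and 7.42 TPM.

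Sqstm1 (ENSMUSG00000015837.15, chr11:50199366-50210827, minus strand) was the highest of the 10, with 284.99 TPM in replicate 1 and 419.36 TPM in replicate 2. Its mean of 352.2 ± 95.01 TPM exceeded 99.1% of expressed protein-coding genes. Sqstm1 is both a partner of KEAP1 and a known NRF2 target. Over Nfe2l2 its TPM ratio was 2.46 in replicate 1 and 2.95 in replicate 2, and 3.52 and 4.03 by the alignment-free quantification.

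The thioredoxin arm spanned a wide range. Txnrd1 (ENSMUSG00000020250.10, chr10:82833951-82897712, plus strand), the cytosolic thioredoxin reductase, had 86.79 TPM in replicate 1 and 135.09 TPM in replicate 2, at the 95.2nd percentile. Prdx1 (ENSMUSG00000028691.12, chr4:116685544-116700822, plus strand), a peroxiredoxin that removes hydrogen peroxide, had 54.75 TPM in replicate 1 and 68.88 TPM in replicate 2. Both lay far above Srxn1 (ENSMUSG00000032802.8, chr2:152105516-152111376, plus strand), the sulfiredoxin that repairs over-oxidised peroxiredoxins, which had 4.04 TPM in replicate 1 and 6.03 TPM in replicate 2. Txnrd1 exceeded Srxn1 21.5-fold in replicate 1 and 22.4-fold in replicate 2 in TPM. On counts scaled by depth and by the length of merged exons (RPKM), a scale added after the data were seen, that ratio was 7.57 in replicate 1 and 7.74 in replicate 2. The matching ratio of Prdx1 over Srxn1 was 13.6 in replicate 1 and 11.4 in replicate 2 in TPM, and 2.83 and 2.51 in RPKM.

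Within glutathione synthesis the gene for cystine import stood above those for the ligase in TPM over all isoforms. Slc7a11 (ENSMUSG00000027737.10, chr3:49892526-50443614, minus strand) encodes the cystine transporter xCT, and it had 10.79 TPM in replicate 1 and 28.34 TPM in replicate 2. The genes of glutamate-cysteine ligase, the rate-limiting enzyme, were the lowest of the 10. Gclm (ENSMUSG00000028124.15, chr3:122245557-122270732, plus strand), the modifier subunit, had 1.90 TPM in replicate 1 and 1.80 TPM in replicate 2. Gclc (ENSMUSG00000032350.9, chr9:77754535-77794485, plus strand), the catalytic subunit, had 1.36 TPM in replicate 1 and 1.69 TPM in replicate 2. Their means of 1.85 ± 0.071 and 1.52 ± 0.233 TPM lay at the 15.4th and 11.4th percentiles. The order of the subunits depended on the scale: the ratio of Gclm over Gclc was 1.40 in replicate 1 and 1.07 in replicate 2 in TPM, but 0.348 and 0.346 in RPKM over merged exons.

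Gclm rested on few reads, 43 counts in replicate 1 and 48 in replicate 2. The alignment-free quantification gave it 277.5 counts in replicate 1 and 266.0 in replicate 2, which is 6.45 and 5.54 times as many, the largest such ratio among the 10. The opposite-strand gene Gm17494 shares 296 exon bases with Gclm, and its counts were 19.5 and 21.5 by alignment but 678.5 and 730.1 without alignment. The same-strand pseudogene Gm6061 shares 244 exon bases with Gclm. It had 0 and 3.11 counts by alignment, and 0 in both libraries without alignment. The part of these overlaps in the value of Gclm was not tested. Among the other 9 genes the alignment-free counts were between 1.32 and 2.90 times the alignment-based ones. The library totals differed in the same direction. They were 32760987 counts without alignment against 18445009 by alignment in replicate 1, and 30332337 against 17686824 in replicate 2. Shared exon bases on the opposite strand also touched Keap1 (510 bases with Gm16754) and Sqstm1 (580 bases with Mrnip), and no source used here gives the strand setting, so reads of such pairs cannot be told apart.

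Hmox1 (ENSMUSG00000005413.8, chr8:75093621-75100589, plus strand), the haem oxygenase that is often taken as the marker of NRF2 activity, was low. It had 5.59 TPM in replicate 1 and 2.59 TPM in replicate 2, from 108 and 47 counts, and its mean of 4.09 ± 2.12 TPM exceeded 33.4% of expressed protein-coding genes. Replicate 1 was the higher, the reverse of Slc7a11.

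Most of these genes were lower in replicate 1. On TMM-scaled expected counts, 8 of the 10 were lower in replicate 1 and 2 were higher, with a median log2 ratio of replicate 1 over replicate 2 of -0.35, where the 13218 genes that reached 10 counts in both libraries had a median of 0.0028. The counting interval (95%, exact, on counts) lay below 0 for 6 genes, above 0 for 1 and spanned 0 for 3. Over the 13218 genes it lay below 0 for 24.3% and above 0 for 23.3%. The interval narrows as counts rise, and these shares are not matched to the counts of the 10 genes. Such intervals cover counting error only, and with 1 library on each side no test between them was made. Hmox1 was higher in replicate 1 by 2-fold or more, as 3.24% of genes were. Slc7a11 was lower by that much, as 4.01% of genes were.

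Slc7a11 differed most. It had 667 counts in replicate 1, against 1827 in replicate 2. The log2 ratio was -1.58 (interval -1.71 to -1.45), a 2.99-fold difference, and 0.755% of protein-coding genes with 10 counts had a lower ratio. Its 3 isoforms with reads lay on the same side, with log2 ratios of -1.99 for the coding Slc7a11-201, -1.43 for Slc7a11-202 and -1.07 for Slc7a11-204. Gm37498, an unconfirmed transcript on the same strand inside Slc7a11 that shares no exon base with it, had 228 counts in replicate 1 against 500 in replicate 2 and a log2 ratio of -1.26 (interval -1.49 to -1.03). By alignment-free counts the Slc7a11 log2 ratio was -1.15.

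For Hmox1 the log2 ratio was 1.07 (interval 0.57 to 1.60), higher than in 97.5% of protein-coding genes with 10 counts. Sqstm1 had a log2 ratio of -0.64 (interval -0.69 to -0.58) and Txnrd1 one of -0.60 (interval -0.66 to -0.53). Nfe2l2, Prdx1 and Srxn1 had log2 ratios of -0.31, -0.39 and -0.57 with intervals below 0. Keap1 at 0.14, Gclm at -0.29 and Gclc at -0.29 had intervals across 0. The starting RNA and macrophage markers also differed between these libraries, as given above, and their part in these ratios was not tested.

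**Figure D2:**
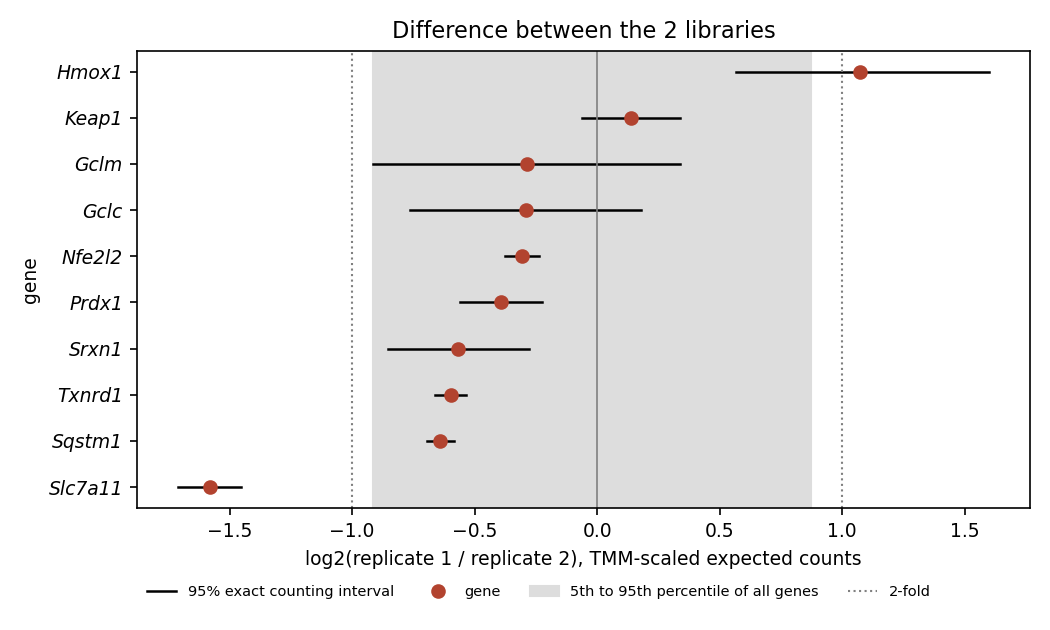
Log2 ratio of replicate 1 over replicate 2 for each of the 10 genes (points) with 95% exact counting intervals (lines), on TMM-scaled expected counts, with the 5th to 95th percentile of 13218 genes shaded and 2-fold limits dotted. Slc7a11 lies left of the shaded range at -1.58 and Hmox1 right of it at 1.07.

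The 10 genes have 49 annotated transcripts, and on chromatin much of their TPM was assigned to isoforms that are not protein coding. Isoforms of the retained-intron class held 45.1 ± 0.904% of the summed TPM of the 10 genes (45.7% in replicate 1 and 44.4% in replicate 2), against 37.7 ± 0.252% over all protein-coding genes. In counts, which are not divided by length, the share was 19.5 ± 0.546% for the 10 genes and 24.98 ± 0.635% for all protein-coding genes, so the order of the 10 genes against the rest turned with the scale. The leading isoform by mean TPM was not protein coding in 4 of the 10 genes (Nfe2l2, Keap1, Slc7a11 and Prdx1) and in 34.4% of 9606 expressed protein-coding genes, counted here from summed transcript TPM in place of the gene table. By counts it was protein coding in all 10, while it was not in 21.1% of the 9606 genes. By the alignment-free quantification it was not protein coding in 6 of the 10 in TPM, against 45.6% of the 9606 genes. In alignment-free counts it was not in 1 of the 10, against 25.5%. Reads can be assigned to annotated isoforms alone, so unspliced precursor RNA and a retained intron cannot be told apart in these tables.

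**Figure D3:**
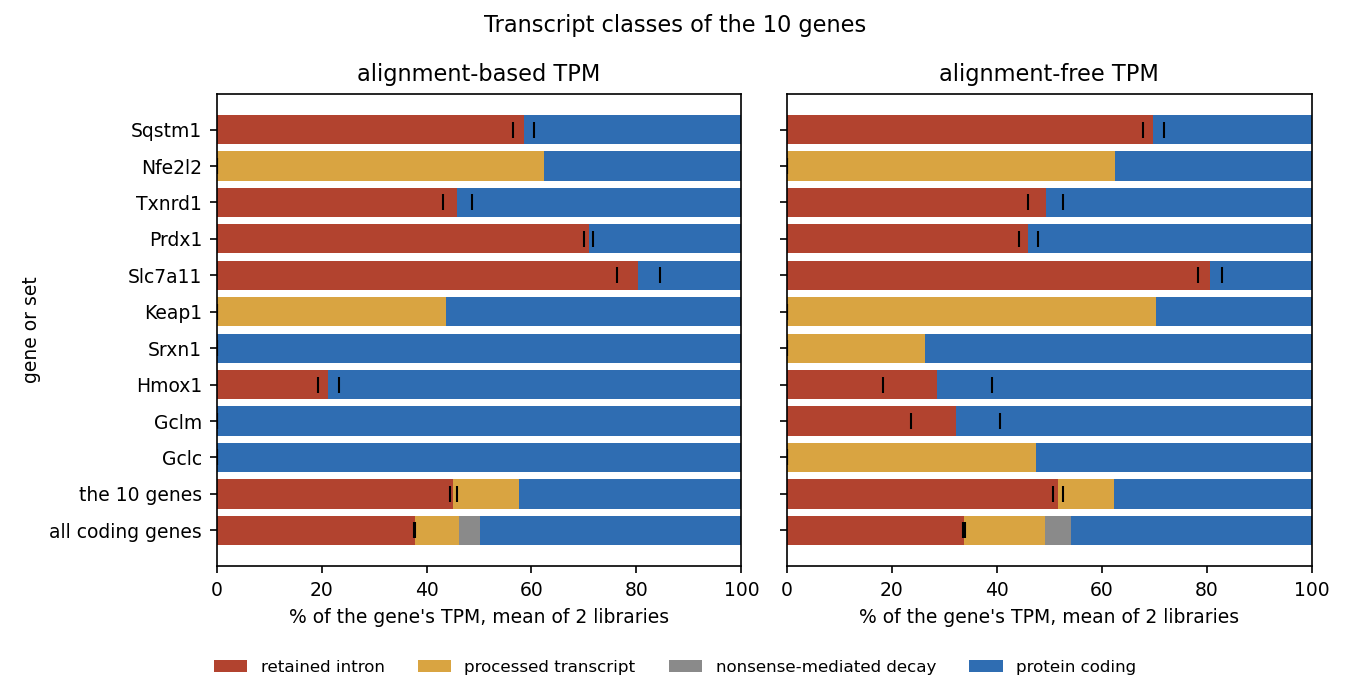
Share of each gene's TPM (mean of 2 libraries, in percent) by transcript class, for the 10 genes, for them together and for all protein-coding genes, by the alignment-based (left) and alignment-free (right) quantification, with black ticks for the retained-intron share in each library. Retained-intron isoforms held most of the TPM of Slc7a11 and Sqstm1 in both panels, and the processed transcript held most of Nfe2l2 in both.

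Nfe2l2 has only 2 annotated transcripts. The non-coding Nfe2l2-202 held 63.4% of the gene's TPM in replicate 1 and 61.5% in replicate 2, with 73.4 and 87.43 TPM, and the coding Nfe2l2-201 had 42.44 and 54.72 TPM. Nfe2l2-202 has 2 exons, of which the second lies inside intron 1 of Nfe2l2-201, covers 5.30% of that 24934-base intron and ends at 46.7% of the span of Nfe2l2-201. It lacks the 4 later exons and the stop codon. In counts the coding isoform was slightly ahead, with 1614 counts against 1497 for Nfe2l2-202 in replicate 1 and 1892 against 1634 in replicate 2. Both quantifications gave close shares, 62.4 ± 1.31% and 62.6 ± 0.697% for Nfe2l2-202 (alignment-based, then alignment-free).

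Slc7a11 was led by Slc7a11-204 and Slc7a11-202, both of the retained-intron class, which together held 84.5% of its TPM in replicate 1 and 76.2% in replicate 2. Slc7a11-204 is a single exon that runs from the first exon into intron 1 and covers 50.5% of it, and it ends at 3.41% of the span of the 12-exon coding isoform Slc7a11-201. Slc7a11-202 runs from the start into intron 6 and ends at 35.1% of that span. Slc7a11-201 had 1.67 TPM in replicate 1 and 6.74 TPM in replicate 2. Over the coding isoforms alone Slc7a11 averaged 4.21 ± 3.59 TPM and stood below Keap1 at 7.83 ± 0.573 TPM, whereas over all isoforms its mean stood above that of Keap1. In replicate 1 the coding isoforms of Slc7a11, at 1.67 TPM, were also below those of Gclm, at 1.90 TPM. Among 6157 expressed protein-coding genes with a retained-intron isoform, whose median share was 44.9%, Slc7a11 stood at the 94.1st percentile.

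Prdx1 was led by Prdx1-206, a retained-intron isoform with 39.28 TPM in replicate 1 and 48.21 TPM in replicate 2, or 71.7% and 70.0% of the gene. Prdx1-206 holds part of the first exon, the second and 374 bases of intron 2, and it ends at 15.4% of the span of the coding Prdx1-204. In counts its share was 36.5 ± 0.486%, and in alignment-free TPM 46.0 ± 2.62%. Prdx1-204 had 8.07 TPM in replicate 1 and 10.69 TPM in replicate 2. The leading isoforms of Nfe2l2, Slc7a11 and Prdx1 thus all ended before the middle of the gene's main coding isoform.

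**Figure D4:**
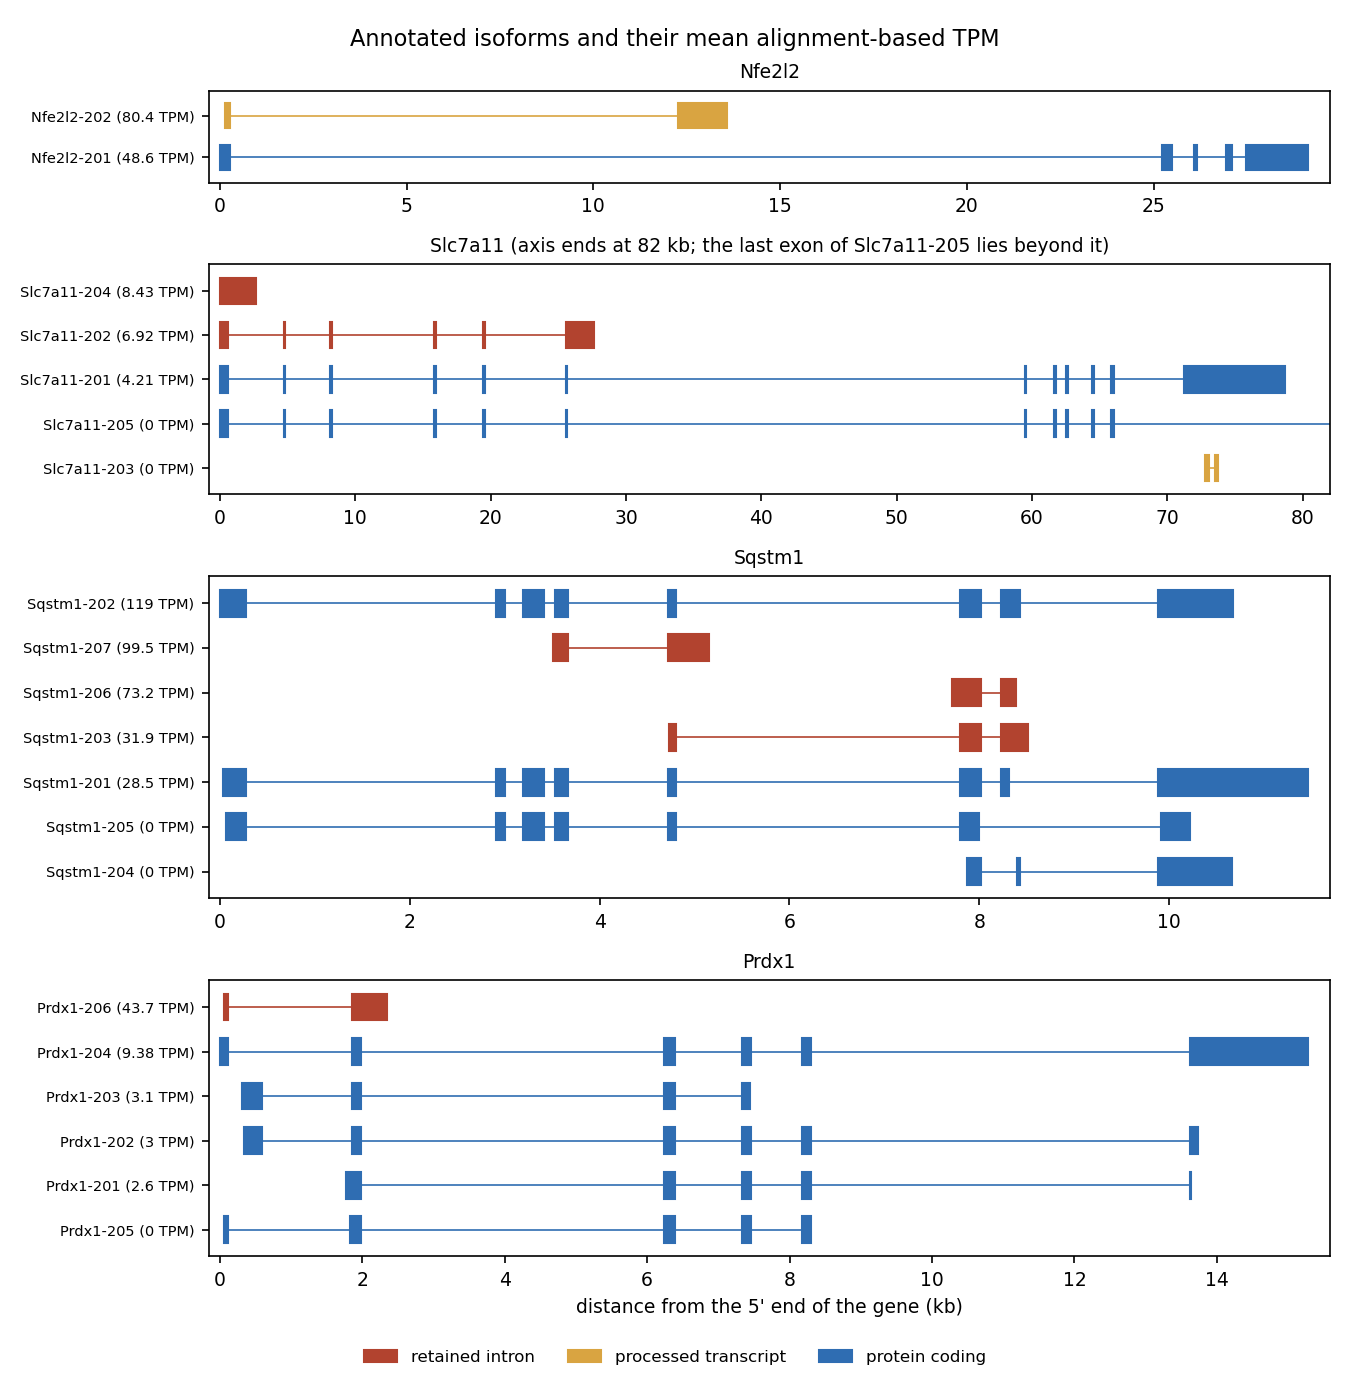
Annotated isoforms of Nfe2l2, Slc7a11, Sqstm1 and Prdx1 as exons (boxes) and introns (lines) by distance from the 5′ end of the gene in kb, ordered by mean alignment-based TPM, with protein-coding isoforms in blue. The non-coding isoforms that lead Nfe2l2, Slc7a11 and Prdx1 occupy the first part of the gene. The retained-intron isoforms of Sqstm1 lie between 32.9% and 79.8% of the span of Sqstm1-202.

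In Sqstm1 the coding Sqstm1-202 led with 86.49 TPM in replicate 1 and 151.52 TPM in replicate 2. Its retained-intron isoforms Sqstm1-207, Sqstm1-206 and Sqstm1-203 together held 60.6% of the TPM in replicate 1 and 56.5% in replicate 2, but 18.4% and 17.03% of the counts, since they are short. Sqstm1-207, of 585 bases, had 83.16 TPM in replicate 1 and 115.88 TPM in replicate 2 and extends 344 bases into intron 5. Sqstm1-206 and Sqstm1-203 hold only 84 and 87 bases of the introns of Sqstm1-202. Isoforms with at least 100 such bases held 28.4 ± 1.09% of Sqstm1 TPM. Between the libraries Sqstm1-202 differed more, with a log2 ratio of -0.80, than Sqstm1-207 at -0.54 and Sqstm1-201 at -0.25.

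Txnrd1 had 45.9 ± 3.83% of its TPM on retained-intron isoforms, close to the median of expressed genes. Txnrd1-207 was the only 1 of the 11 retained-intron isoforms of these genes to hold whole introns of the main coding isoform, introns 5 and 7 of Txnrd1-206, which are 401 and 1965 bases long. It had 995 counts in replicate 1 against 984 in replicate 2 and a log2 ratio of -0.11 (interval -0.24 to 0.018), while the coding Txnrd1-201 had 1076 and 1729 counts and a log2 ratio of -0.81 (interval -0.92 to -0.70). The transcript classes did not divide this way throughout. The coding Txnrd1-206 had a log2 ratio of -0.019 (interval -0.21 to 0.17), and the retained-intron Txnrd1-202 one of -0.93 (interval -1.42 to -0.46). The deposited posterior SD of the Txnrd1-201 count was 87.5 in replicate 1 and 107 in replicate 2, since the coding isoforms share most of their exons. Without alignment Txnrd1-201 had only 231 counts in replicate 1 and 384 in replicate 2. By the alignment-free quantification the leading isoform was Txnrd1-202, which had 27.8 TPM in replicate 1 and 35.4 TPM in replicate 2.

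The remaining genes had fewer counts by alignment. Hmox1-202, of the retained-intron class, held 21.3 ± 2.74% of Hmox1 TPM from 11.5 counts in replicate 1 and 4.17 in replicate 2. All alignment-based TPM of Gclc and of Srxn1 lay on the coding Gclc-201 and Srxn1-201. Without alignment, non-coding processed transcripts held 47.5 ± 11.6% of Gclc TPM and 26.3 ± 7.51% of Srxn1 TPM. In alignment-free counts these shares were 11.6 ± 5.42% and 2.56 ± 0.998%. In Gclm the leading isoform was the coding Gclm-203, with 6.01 counts in replicate 1 and 17.1 in replicate 2, too few to order its isoforms, and the alignment-free quantification put Gclm-201 first. The retained-intron Gclm-205 was listed at 0 by alignment and held 32.2 ± 11.9% of alignment-free TPM. Keap1-203, a non-coding isoform of 317 bases with 6 counts in replicate 1 and 13 in replicate 2, took 43.8 ± 14.5% of Keap1 TPM. For that reason Keap1 was lower in replicate 1 than in replicate 2 in TPM but higher in counts, and its 5 coding isoforms summed to 8.23 TPM in replicate 1 and 7.42 TPM in replicate 2.

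The exon-intron boundaries that the leading retained-intron isoforms run through are given from the transcript sequences of GENCODE M21, 15 bases of exon and 15 of intron, 5′ to 3′ on the gene's strand in mm10, with the first 2 intron bases in capitals. A read across such a boundary comes from RNA in which that intron had not been removed.
Slc7a11-204, intron 1, chr3:50442970-50442999, minus strand: tactgtcactttttgGTgagtgcgcttctt
Prdx1-206, intron 2, chr4:116687509-116687538, plus strand: taagtgaatacaaagGTaagattaaagagg
Sqstm1-207, intron 5, chr11:50206008-50206037, minus strand: ccctcagccctctagGTgagtgagctttct
Txnrd1-202, intron 1, chr10:82860616-82860645, plus strand: ggtccagccctgaagGTaggagctgcgcag
Hmox1-202, intron 4, chr8:75098851-75098880, plus strand: ctagcctggtgcaagGTaaaggtggcctct

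All 5 introns begin with the usual donor letters GT. The isoforms reach 50.5% of the intron in Slc7a11, 8.80% in Prdx1, 11.5% in Sqstm1, 2.28% in Txnrd1 and 17.3% in Hmox1, so the annotated isoform covers the start of each intron and not the whole of it.

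The other genes of the pathway were counted in lists, with levels as mean TPM. Of 14 regulators and partners of NRF2, 12 reached 1 TPM in both libraries and the median was 15.7 TPM. Nfe2l1, a relative of NRF2, led with 79.11 TPM in replicate 1 and 97.97 TPM in replicate 2, below Nfe2l2 itself. Mafg, a small MAF partner, followed with 53.42 and 52.81 TPM, then Gsk3b, a kinase that marks NRF2 for degradation, with 30.35 and 32.54 TPM. Bach2, a repressor that competes for the same elements, was lowest at 0.165 ± 0.049 TPM.

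Of 14 further glutathione genes, 11 reached 1 TPM in both libraries, with a median of 7.04 TPM (13.2 TPM alignment-free). Slc3a2, the heavy chain that pairs with xCT, had 81.62 TPM in replicate 1 and 110.55 TPM in replicate 2. It was higher than Slc7a11 in each library, and like Slc7a11 lower in replicate 1, though by a log2 ratio of only -0.39. Abcc1, which exports glutathione conjugates, averaged 73.4 ± 16.3 TPM and Glrx, a glutaredoxin, 39.6 ± 4.10 TPM, while Chac1, which degrades glutathione, was lowest at 0.535 ± 0.092 TPM.

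Among 13 further thioredoxin and peroxiredoxin genes, with a median of 4.0 TPM, Prdx5 led with 77.12 TPM in replicate 1 and 87.75 TPM in replicate 2, followed by Txn2 at 12.8 ± 1.36 TPM and Txn1 at 12.1 ± 0.191 TPM, whose libraries overlapped. The alignment-free quantification put Txn1 above Txn2, at 33.0 and 16.0 TPM. Txn1, the substrate of the reductase, stood below Txnrd1 in TPM by both quantifications. Sesn3 was lowest at 0.260 ± 0.071 TPM. Prdx1 itself was second to Prdx5 among the 6 peroxiredoxins in mean alignment-based TPM, while in alignment-free TPM Prdx1 was the higher, at 109.4 TPM against 83.1 TPM for Prdx5.

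The iron genes held the highest values near Hmox1. Fth1 and Ftl1, the ferritin chains that store the iron freed by haem oxygenase, had 775.45 and 267.44 TPM in replicate 1 and 708.47 and 198.23 TPM in replicate 2. Ireb2, which controls ferritin and transferrin receptor RNA, averaged 25.9 ± 2.25 TPM, and Slc40a1, the iron exporter ferroportin, was lowest at 2.10 ± 0.898 TPM. All 8 iron and haem genes reached 1 TPM, with a median of 16.7 TPM.

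Of 7 genes of NADPH supply and quinone reduction, with a median of 2.77 TPM (9.63 TPM alignment-free), Pgd (48.0 ± 0.841 TPM), Tkt (7.74 ± 0.516 TPM) and G6pdx (6.58 ± 1.67 TPM) were highest. Nqo1, a quinone reductase and textbook NRF2 target, had 0 counts in both libraries by both quantifications, which allows up to 0.135 TPM in replicate 1 and 0.148 TPM in replicate 2 (3 counts per library). Among superoxide and peroxide enzymes Sod2, in mitochondria, had 508 ± 27.8 TPM, Sod1 3.31 ± 1.05 TPM, Cat 1.79 ± 0.148 TPM and Sod3 no count by alignment.

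The phagocyte oxidase, the enzyme that makes superoxide in these cells, had a median of 95.1 TPM over 6 subunits (220.3 TPM alignment-free), all at 10 TPM or more in both libraries. Cybb had 350.75 TPM in replicate 1 and 487.87 TPM in replicate 2, Ncf1 309.34 and 289.25 TPM and Ncf4 136.68 and 113.46 TPM. Among 9 further autophagy receptors and adaptors Optn (80.9 ± 9.71 TPM), Tax1bp1 (68.1 ± 14.1 TPM) and Gabarap (26.5 ± 3.39 TPM) were highest and Map1lc3a (0.560 ± 0.424 TPM) lowest, and Sqstm1 exceeded each of the 9 in both libraries.

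**Figure D5:**
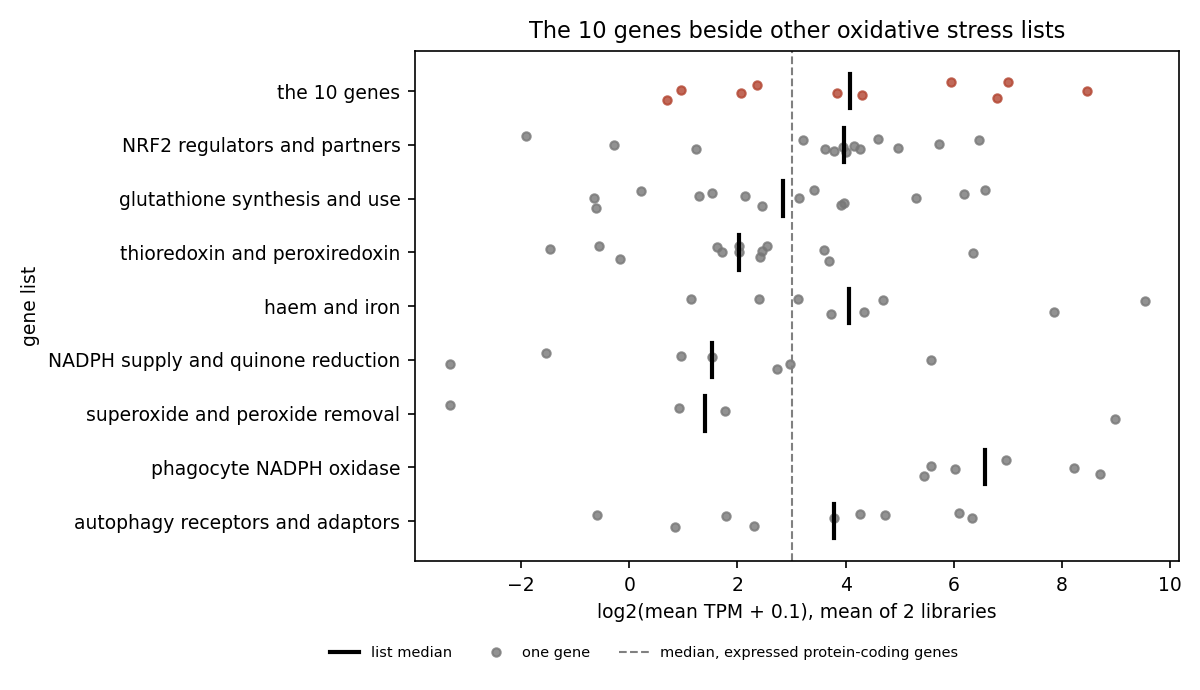
log2(mean TPM + 0.1) of each gene (dots) in the list of 10 genes (red) and in 8 other oxidative stress lists (grey), with list medians as black bars and the median of expressed protein-coding genes as a dashed line. The phagocyte NADPH oxidase list has the highest median (95.1 TPM), and the dots at the far left are Nqo1 and Sod3 with 0 counts.

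Among the genes of these 8 lists with at least 10 counts in each library, 3 differed by 2-fold or more on TMM-scaled counts. They are named because of it. Over all genes with that many counts, 3.24% were higher in replicate 1 by 2-fold or more and 4.01% were lower. Genes with that many counts numbered 8 in the iron list, 12 in the glutathione list and 13 in the thioredoxin list, with 1 of the 3 in each. The other lists had none. They held 14 such regulators, 6 NADPH supply genes, 3 superoxide and peroxide genes, 6 oxidase genes and 8 autophagy genes. Tfrc, the transferrin receptor, was higher in replicate 1 (21.37 TPM) than in replicate 2 (4.92 TPM). Gstm1, a glutathione transferase, was lower in replicate 1 (5.17 TPM) than in replicate 2 (16.12 TPM), and Prdx4, a peroxiredoxin of the secretory pathway, was lower in replicate 1 (2.11 TPM) than in replicate 2 (4.24 TPM).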

How the data were processed

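The authors' deposited tables were used, with mm10 and GENCODE M21, per the submitters' description files. Deposited expected counts and TPM per gene and transcript came from alignments, with column names as RSEM writes them, per the file headers. Deposited estimated counts and TPM of a second transcript table were made without alignment, with kallisto's column names, and were summed per gene. No source used here gives the programs, their versions or the strand setting. Spike-ins and numbered entries were left out. Expected counts were rounded for intervals.

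Replicate ratios used TMM scaling (edgeR 4.0.16) where both libraries reached 10 counts, and DESeq2 1.42.0 size factors as an alternative; intervals are exact Clopper-Pearson (scipy 1.17.1) and cover counting error only. The ratio step was tested on simulated data. With 1 condition no test was made. RPKM over merged exons was added after seeing the data. Named were all 10 genes, the 3 highest and the lowest gene of each list, the highest gene of each marker list and, per gene, its leading and highest retained-intron transcripts; others are marked, and the lowest gene of 1 list is not reported here. Genes and lists were chosen with earlier results of these data known. The main coding isoform is the longest with a principal tag. Of the 10 genes, 8 matched the RefSeq promoter table (GRCm38.p6).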

Additional observations from a re-analysis of the deposited data

How the results depend on the processing

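With TPM rescaled to protein-coding genes, 4 of the 10 genes reached 100 TPM in place of 2. The median of the 10 genes was then 62.1 TPM in place of 16.9. The matching share and median of all protein-coding genes on the rescaled values are not given here. Neither rescaled value therefore places the 10 genes against other genes. On counts per kilobase of merged exons, chosen after seeing the data, the median was 4.94 RPKM; both alternatives change the unit. At a 1.5-fold limit 3 genes (Slc7a11, Sqstm1 and Txnrd1) were lower in replicate 1 in place of 1, as were 11.6% of all genes. The retained-intron share of the 10 genes was 19.5% in counts and 51.6% by the alignment-free program, in place of 45.1%; the count share is lower because those isoforms are short, and the cause of the other was not tested. Of 30 alternatives for summary values, the other 24 stayed within the spread of the libraries or, for counts, within 1.5 times. Leaving out a replicate gave medians from 11.6 to 22.2 TPM and 2 to 3 genes at 100 TPM. Among single genes and lists 112 of 172 alternatives stayed within their limit and 60 moved. Among the 10 genes the largest moves by quantification were in Gclm (1.85 alignment-based against 4.17 alignment-free TPM) and Prdx1 (61.8 against 109 TPM), and among lists in NADPH supply (2.77 against 9.63 TPM) and the phagocyte oxidase (95.1 against 220.3 TPM). No paired analysis was possible because there was 1 group. Depth limits Gclm, Gclc and Hmox1, with 43 to 108 counts, most.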

Other observations

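The quantifications disagreed in TPM for a few genes near the pathway by more than for any of the 10 genes, and the genes named here were picked after their values were seen. Sesn3, a sestrin, had 0.21 alignment-based TPM in replicate 1 and 0.31 in replicate 2, against 8.80 and 10.9 alignment-free TPM. Rac2, an oxidase subunit, had 55.76 and 40.25 alignment-based TPM, against 249.9 and 220.3 alignment-free TPM. The T cell marker Cd3d had 2 counts in replicate 1 and 0 in replicate 2 by alignment, against 15.5 and 20.1 alignment-free TPM.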
